A study of Mus musculus with 12 samples.

Results

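Levels of 10 transcription factors of effector and exhausted T cells were described in CD8 T cells from the pancreatic islets and spleens of NOD mice, out of 32285 genes counted. The factors were Tox, Tox2, Tbx21, Eomes, Id2, Prdm1, Zeb2, Batf, Irf4 and Irf8. They were chosen by name, with earlier results of these data known, and matched by gene symbol, and all 10 were found. All samples came from female prediabetic NOD/ShiLtJ mice aged 10 to 15 wk, a strain that develops autoimmune diabetes without an engineered transgene. In each of 2 rounds, tissue from 10 mice was pooled and CD8 T cells were sorted by a Kd tetramer carrying the peptide mimic NRP-V7, which binds receptors specific for the β-cell antigen IGRP. The 3 sorted groups were tetramer-negative cells of the islets (islet IGRP-), tetramer-positive cells of the islets (islet IGRP+) and tetramer-positive cells of the spleen (spleen IGRP+), the last also gated on CD44, a marker of antigen-experienced T cells. Each group was 1 pooled library a round, so the 2 libraries of a group stand for 2 pools of mice and not for single animals, and the smallest two-sided p of an exact permutation test over libraries of 2 groups is 0.333. RNA was counted as unique molecular identifiers (UMIs, 1 per captured molecule) in single cells, and the T-cell receptor was read in the same cells.

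These factors act at successive points of CD8 T-cell differentiation. Batf and Irf4 act together after receptor triggering, Batf binding DNA with Jun proteins at joint sites with an interferon regulatory factor. Tbx21 (which encodes T-bet) and Eomes are T-box factors that drive effector and memory programs, and Zeb2, Id2 and Prdm1 (Blimp-1) favor terminal effector differentiation, Id2 by holding E proteins off DNA. Tox and its relative Tox2 are HMG-box proteins that persistent antigen exposure induces, and Tox is needed for exhausted T cells to form. In autoimmune islets, CD8 T cells meet their antigen for weeks, and effector and exhaustion features have been described in the same cells.

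After removal of cells with 5% or more mitochondrial UMIs or with gene numbers outside the limits, 1204 to 8932 cells remained per library, with 5880696 to 40469961 UMIs in all. The median depth of a cell was 3793 to 4216.5 UMIs in the 4 islet libraries and 2590 and 2764.5 in the spleen, so shares of cells with a UMI are also given after each cell was thinned to 1000 UMIs. All 6 CD8 T-cell marker genes were detected in every library, with a summed level of 4198 to 5884 CPM (UMIs of a gene per 1000000 UMIs of its library). Summed markers of CD4 T cells reached 0.170 to 2.05 CPM, of myeloid cells 15.6 to 30.4, of B cells 2.38 to 12.02 and of natural killer cells 0 to 1.01. Exocrine pancreas markers were at 61.2 to 472 CPM in the islet libraries and at 5.62 and 6.51 in the spleen. Between 2 and 64 cell barcodes were shared per pair of libraries, at most 1.03% of the smaller library. Cycling cells made up 20.4% and 15.4% of islet IGRP+ cells, 8.21% and 5.79% of islet IGRP- cells, and 0.511% and 0.658% of spleen IGRP+ cells. Round 1 was sequenced with a shorter second read than Round 2 in all groups, so read length and the pool of mice cannot be told apart between rounds.

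Of the 10 factors, 7 had their highest thinned share of positive cells in islet IGRP+ (Tox, Tox2, Id2, Prdm1, Zeb2, Batf and Irf8), Tbx21 and Eomes had theirs in spleen IGRP+, and Irf4 in islet IGRP-. The same 7 led at 500 UMIs per cell, and 7 did when cells were not filtered. A summed level alone does not separate how many cells held an RNA from how much each held, so both are given.

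Tox (ENSMUSG00000041272, chr4:6686353-6991557, minus strand, GRCm38) was at 307 and 289 CPM in islet IGRP+ in Rounds 1 and 2, at 159.6 and 125 CPM in islet IGRP-, and at 174 and 151 CPM in spleen IGRP+. Both islet IGRP+ libraries stood above the other 4, whose ranges overlapped. A Tox UMI was found in 66.9% and 66.5% of islet IGRP+ cells against 34.6% and 32.1% of islet IGRP- cells and 32.9% and 31.8% of spleen cells. After thinning, the shares were 27.2% ± 1.05 (SD, n = 2), 11.7% ± 1.38 and 15.0% ± 1.40. Tox2 (ENSMUSG00000074607, chr2:163203125-163324170, plus strand) was the factor that the spleen almost lacked. Its levels were 103 and 121 CPM in islet IGRP+, 71.6 and 65.1 CPM in islet IGRP-, and 10.6 and 7.96 CPM in spleen IGRP+, so the 3 groups did not overlap. In the spleen 2.53% and 2.18% of cells held a Tox2 UMI, against 34.3% and 38.5% in islet IGRP+ and 19.8% and 18.0% in islet IGRP-.

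Levels of the T-box factors followed the rounds as well as the groups. Tbx21 (ENSMUSG00000001444, chr11:97098071-97115331, minus strand) was at 49.98 and 88.0 CPM in islet IGRP-, 43.7 and 104 CPM in islet IGRP+, and 70.9 and 135 CPM in spleen IGRP+. All 3 groups overlapped, and the Round 2 library was above the Round 1 library in each. Eomes (ENSMUSG00000032446, chr9:118478212-118486132, plus strand) was at 114 and 118 CPM in islet IGRP-, 149 and 216 CPM in islet IGRP+, and 184 and 281 CPM in spleen IGRP+. Both tetramer-positive groups stood above islet IGRP- and overlapped each other. The share of cells with UMIs of both T-box genes was 6.81% and 16.8% in islet IGRP+, 5.68% and 8.11% in islet IGRP-, and 6.02% and 14.7% in spleen IGRP+. In every library except that of islet IGRP- in Round 2, where the shares were 16.0% each, cells with Eomes alone outnumbered cells with Tbx21 alone, for instance 33.3% against 9.97% in islet IGRP+ of Round 1.

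Among the factors of terminal effector differentiation, Id2 (ENSMUSG00000020644, chr12:25093799-25097140, minus strand) separated all 3 groups, with 342 and 310.1 CPM in islet IGRP+, 239.7 and 213 CPM in islet IGRP-, and 175 and 185 CPM in spleen IGRP+. Prdm1 (ENSMUSG00000038151, chr10:44437177-44528501, minus strand) was at 27.9 and 42.5 CPM in islet IGRP+, 14.2 and 24.9 CPM in islet IGRP-, and 19.98 and 25.9 CPM in spleen IGRP+. Zeb2 (ENSMUSG00000026872, chr2:44983632-45117395, minus strand) was at 101 and 151 CPM in islet IGRP+, 63.4 and 70.2 CPM in islet IGRP-, and 70.2 and 90.9 CPM in spleen IGRP+. For Prdm1 and Zeb2 the islet IGRP+ libraries were above the other 4, which overlapped. Prdm1 was sparse, with a UMI in 5.02% to 15.1% of cells per library, whereas Id2 was found in 31.2% to 62.7%.

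Batf (ENSMUSG00000034266, chr12:85686669-85709087, plus strand) also separated the groups, with 278 and 244 CPM in islet IGRP+, 168 and 156 CPM in islet IGRP-, and 99.6 and 83.0 CPM in spleen IGRP+. Its partner Irf4 (ENSMUSG00000021356, chr13:30749226-30766976, plus strand) had the opposite order within the islets, with 20.6 and 19.7 CPM in islet IGRP-, 12.9 and 16.3 CPM in islet IGRP+, and 15.2 and 3.76 CPM in spleen IGRP+. The spleen and islet IGRP+ ranges overlapped, and the Round 2 spleen library was the lowest of all. Irf8 (ENSMUSG00000041515, chr8:120736358-120756694, plus strand), which is better known from myeloid and B cells and is also induced in effector CD8 T cells, was at 24.997 and 26.4 CPM in islet IGRP+, 19.5 and 25.3 CPM in islet IGRP-, and 7.60 and 6.95 CPM in spleen IGRP+. The spleen libraries were below the islet libraries, which overlapped between tetramer groups. Summed markers of myeloid cells, of which 4 to 8 of 9 were detected, were at 19.4 to 30.4 CPM in the islets and at 15.6 and 16.1 CPM in the spleen, and those of B cells, of which 2 to 4 of 6 were detected and Pax5 was at 0 everywhere, at 2.38 to 5.14 CPM and at 9.58 and 12.02 CPM. Their part in the Irf8 level was not tested.

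As a rough measure of background from free RNA, islet barcodes with at least 10% of UMIs from exocrine markers were taken, without the cell filter. These 72 barcodes, with a median of 781 UMIs, held 0 to 3 UMIs of each factor, in at most 4.17% of them. Whether some were T cells holding exocrine RNA was not tested. Of 18157 islet T cells with a median of 3856 UMIs, 6.80% to 45.0% held a UMI of each factor. The depths differ, and 0 of 72 cells allows a share of up to 4.17%. For Irf8 the exocrine level, 26.5 CPM from 2 UMIs, was not below the 23.4 CPM of islet T cells. These barcodes came from the islet suspensions, so they give no background for the spleen, where 1.79% and 1.89% of cells held an Irf8 UMI, 73 and 48 UMIs in all.

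**Figure D1:**
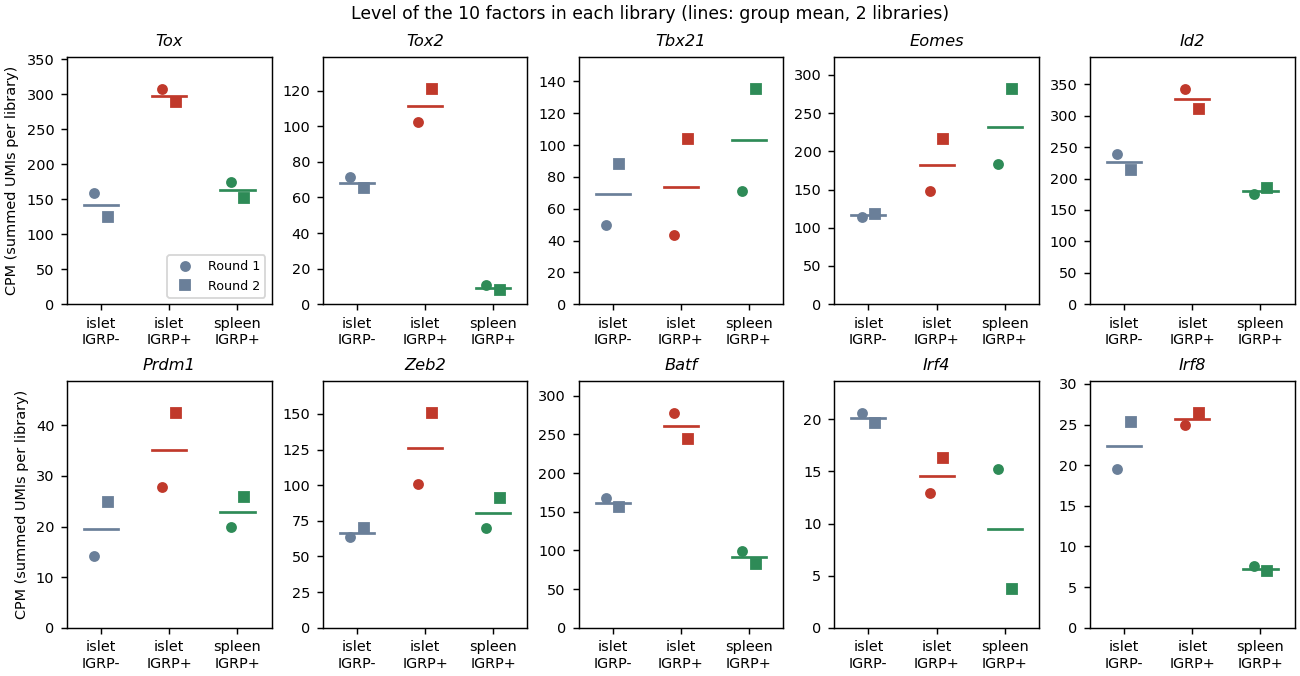
Level of each of the 10 factors in CPM (vertical axes) in the 3 groups, with circles for Round 1, squares for Round 2 and lines for group means of 2 libraries. Tox, Tox2, Id2, Prdm1, Zeb2 and Batf are highest in both islet IGRP+ libraries, Tox2 is at 10.6 and 7.96 CPM in spleen IGRP+, and Tbx21 is higher in Round 2 in every group.

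Promoter sequences of 2 factors are shown because Eomes and Prdm1 differ in level between the groups and hold matches to motifs that interferon regulatory factors, AP-1 and E proteins are known to bind, families to which other factors described here belong or which they inhibit. RefSeq windows of 250 bases before a transcript start (GRCm38.p6) were at hand for 9 of the 10 factors, in 17 windows. Capitals mark the motif matches, a pair of GAAA runs with NN between them (the IRF motif) in Eomes, CAGGTG (read on both strands) and TGANTCA in Prdm1, the latter window lying before a start inside the gene.
Eomes, chr9:118477939-118478188, plus strand: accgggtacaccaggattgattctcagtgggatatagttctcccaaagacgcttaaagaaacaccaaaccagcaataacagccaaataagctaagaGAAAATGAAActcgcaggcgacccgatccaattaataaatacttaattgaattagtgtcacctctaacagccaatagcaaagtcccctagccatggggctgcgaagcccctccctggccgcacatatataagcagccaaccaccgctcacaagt
Prdm1, chr10:44458749-44458998, minus strand: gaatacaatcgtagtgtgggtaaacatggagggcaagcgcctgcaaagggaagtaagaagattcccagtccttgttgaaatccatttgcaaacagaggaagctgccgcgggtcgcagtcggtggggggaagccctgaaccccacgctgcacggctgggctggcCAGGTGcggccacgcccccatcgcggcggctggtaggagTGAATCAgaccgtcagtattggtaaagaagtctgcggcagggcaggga
On either strand, the IRF motif was found in 2.98% of all 32851 promoter windows, TGANTCA in 6.75% and CAGGTG in 17.2%. Among the factors, the IRF motif was found in a window of Eomes alone, TGANTCA in windows of Prdm1 and Zeb2, and CAGGTG in windows of Irf8, Prdm1, Tbx21 and Tox2. The T-box motif TCACACC was in 3.33% of all windows and the joint AP-1 and IRF motif, TGANTCA with N and TTTC after it, in 0.0852%, and neither was in a window of these factors. A match is a string of letters in a window, and no binding was measured.

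The first comparison asked how tetramer binding relates to the factors within the islets. In both rounds Tox, Tox2, Eomes, Id2, Prdm1, Zeb2, Batf and Irf8 were higher in islet IGRP+ than in islet IGRP-, and Irf4 was lower, but whether these differences passed a test depended on whether the round was in the model. The islet IGRP+ level of Tox was 1.92 times the islet IGRP- level in Round 1 and 2.31 times in Round 2. The corresponding ratios were 1.59 and 2.15 for Zeb2, 1.96 and 1.71 for Prdm1, 1.66 and 1.57 for Batf, 1.43 and 1.45 for Id2, 1.43 and 1.86 for Tox2, and 1.30 and 1.83 for Eomes. Ratios of Irf8 were 1.28 and 1.04, those of Irf4 were 0.627 and 0.828, and those of Tbx21 fell on both sides of 1, at 0.874 and 1.18.

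With the 6 libraries in 1 edgeR quasi-likelihood fit without a round term, 0 of the 10 factors passed an adjusted p of 0.05, where 1.19% of the 11277 genes tested did. Of the 10, 7 had an unadjusted p under 0.05, as did 17.6% of all genes, and DESeq2 called 2. The log2 fold changes were 1.06 ± 0.26 (SE, adjusted p = 0.135) for Tox and 0.89 ± 0.17 (adjusted p = 0.0809) for Zeb2, the smallest adjusted p of the group. Tox2 was at 0.70 ± 0.23 (adjusted p = 0.214), Prdm1 at 0.84 ± 0.27 (adjusted p = 0.202) and Batf at 0.70 ± 0.25 (adjusted p = 0.242). The median log2 fold change was 0.66 over the 10 factors and -0.01 over all genes. In DESeq2, Zeb2 (0.92, adjusted p = 0.000219) and Tox (1.09, adjusted p = 0.009) were called, where 5.09% of all genes were, 1.85% as higher.

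Each round was a single pool of mice, so its 3 libraries share animals, and a fit with the round as a block compares libraries within it. In that fit 7 factors were called higher in islet IGRP+, where 14.4% of all genes were called higher and 30.5% in either direction. They were Tox (1.07 ± 0.11, adjusted p = 1.97e-05), Zeb2 (0.89 ± 0.12, adjusted p = 0.000128), Prdm1 (0.85 ± 0.14, adjusted p = 0.000676), Batf (0.68 ± 0.12, adjusted p = 0.00087), Tox2 (0.71 ± 0.13, adjusted p = 0.00135), Eomes (0.62 ± 0.13, adjusted p = 0.00312) and Id2 (0.52 ± 0.11, adjusted p = 0.00431). Tbx21 was at 0.04 ± 0.12 (adjusted p = 0.837), Irf8 at 0.19 ± 0.14 (adjusted p = 0.342) and Irf4 at -0.44 ± 0.30 (adjusted p = 0.28). Leaving out each library in turn, with 1 residual degree of freedom, gave 6 to 8 calls, where 15.5% to 31.7% of genes were called, with Eomes at 0.42 (adjusted p = 0.0755) without the islet IGRP- library of Round 2.

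The median log2 fold change of the 10 factors in the blocked fit was 0.65 over all cells and lower in selected cells. When the blocked fit used only cells of clones with at least 2 cells in their library, Tox alone was called, at 0.51 ± 0.13 (adjusted p = 0.0434), where 4.22% of genes were called, 1.20% as higher, and the median was 0.06. With only cells holding a UMI of Pdcd1, the gene of the inhibitory receptor PD-1, Tox was again the single factor called, at 0.53 ± 0.12 (adjusted p = 0.0108), where 10.5% of genes were called, 4.13% as higher, and the median was 0.21. A Pdcd1 UMI was found in 70.1% and 73.1% of islet IGRP+ cells and in 37.3% and 33.2% of islet IGRP- cells. Whether these medians differ was not tested.

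Genes of the same pathways were counted in both fits, where 1.19% of all genes were called without the block and 30.5% with it, 14.4% as higher. These lists, like the 10 factors, were chosen with earlier results of these data known. Their counts, here and in the later comparisons, are therefore a description and not independent evidence. Of 9 factors of naive and memory T cells that oppose effector differentiation, 0 were higher and 2 lower without the block, and 8 were lower with it, with a median log2 fold change of -1.37 in both. Lef1, a partner of β-catenin in naive T cells, was at -3.08 ± 0.32 (adjusted p = 0.0231) and Foxp1, which maintains T-cell quiescence, at -1.56 (adjusted p = 0.0331) without the block. With the block, Klf2, which drives lymph node homing genes, was at -2.48, and Bach2, which restrains effector genes, at -1.66. Of 13 genes of Tox-dependent and exhaustion programs, 2 were higher without the block and 11 with it, and 0 were lower in either, with a median of 1.03 without the block. Entpd1, which encodes CD39, was at 1.48 ± 0.15 (adjusted p = 0.0231) and Pdcd1 at 1.18 ± 0.17 (adjusted p = 0.0445). Among 17 target genes of Tbx21, Eomes and Zeb2, 1 was higher and 4 lower without the block and 6 moved each way with it, with a median of 0.15. This list was not divided into genes that a factor raises and genes that it lowers, so its counts and median give no direction of factor activity. Those that fell included the interleukin receptor Il7r (-3.74) and the egress receptor S1pr1 (-3.38). Relatives of the 10 factors gave 1 call of 17 without the block, Irf1 at -1.22 ± 0.18 (adjusted p = 0.0445), and 2 higher and 4 lower with it, among them Batf3 at 0.97 and Zeb1 at -0.64. Of 29 partner factors, 0 were called without the block and 3 higher and 10 lower with it, including Ikzf2 (Helios) at 1.31 ± 0.15 and the AP-1 protein Fosl2 at -0.99. Cycling markers moved with the group, 1 of 9 higher without the block and 8 with it, and their part in the factors' levels was not tested. Exocrine markers moved as well, 0 of 12 called without the block (median -1.71) and 11 lower with it (median -1.75), and with the block the B-cell marker Cd79b was at -0.88 and the myeloid marker Cd68 at 0.64. The part of these was not tested either. Without cycling cells the unblocked fit called 1 factor, Zeb2, where 1.67% of genes were called.

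**Figure D2:**
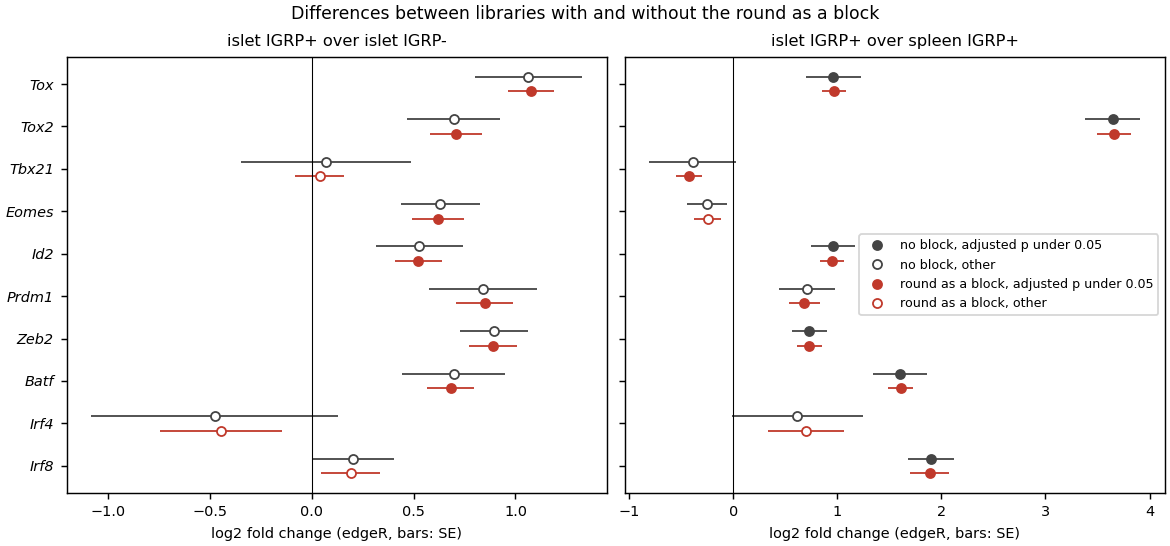
Log2 fold change of each factor (horizontal axis) with its standard error from edgeR, for islet IGRP+ against islet IGRP- and for islet IGRP+ against spleen IGRP+, with and without the round as a block. Estimates barely move with the block while their errors shrink, Tox2 reaches 3.65 ± 0.26 against the spleen, and Tbx21 and Eomes lie below 0 against the spleen.

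The second comparison held the tetramer gate constant and set islet against spleen. It shares the islet IGRP+ libraries with the first. Tox2 was 9.66 and 15.2 times higher in islet IGRP+ than in spleen IGRP+ in the 2 rounds, Irf8 3.29 and 3.80 times (against 73 and 48 spleen UMIs), Batf 2.79 and 2.94 times, Id2 1.95 and 1.67 times, Tox 1.77 and 1.91 times and Zeb2 1.44 and 1.66 times. Tbx21 and Eomes had the opposite direction in both rounds, with ratios of 0.617 and 0.770 for Tbx21 and 0.809 and 0.769 for Eomes. Irf4 was at 0.85 times the spleen level in Round 1 and 4.33 times in Round 2.

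By edgeR, 6 of the 10 factors were called higher in islet IGRP+, where 13.7% of genes were called higher and 26.6% in either direction. They were Tox2 (3.65 ± 0.26, adjusted p = 0.00155), Irf8 (1.90 ± 0.22, adjusted p = 0.00425), Batf (1.60 ± 0.26, adjusted p = 0.00985), Id2 (0.96 ± 0.21, adjusted p = 0.0242), Zeb2 (0.73 ± 0.17, adjusted p = 0.0257) and Tox (0.96 ± 0.26, adjusted p = 0.0431). Prdm1 was at 0.71 ± 0.27 (adjusted p = 0.105), Irf4 at 0.62 ± 0.63 (adjusted p = 0.507), Eomes at -0.25 ± 0.19 (adjusted p = 0.379) and Tbx21 at -0.39 ± 0.42 (adjusted p = 0.528). The median was 0.85 over the 10 factors and -0.03 over all genes. With the round as a block, Prdm1 was called too (0.68 ± 0.15, adjusted p = 0.00196) and Tbx21 was called lower in the islets (-0.42 ± 0.12, adjusted p = 0.011), where 55.1% of genes were called, 28.0% as higher and 27.1% as lower.

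Several of these calls were lost whichever library was left out, also with those of islet IGRP-, which are not part of this difference. Each such fit had 2 residual degrees of freedom against 3, and fewer calls over all genes. Leaving out any of the 5 libraries other than spleen IGRP+ of Round 2 left 4 calls, where 8.40% to 17.8% of genes were called, and leaving out that library left 2, Tox2 and Irf8, where 7.60% were, with Batf at 1.37 (adjusted p = 0.0601) and Id2 at 0.87 (adjusted p = 0.138). Tox was lost with each library left out, at adjusted p from 0.0554 to 0.198, and Zeb2 with 5 of the 6. Irf4 was called at 2.16 (adjusted p = 0.0266) without the spleen library of Round 1. Median depth was lower in the spleen, cycling cells were rarer there, and exocrine markers were higher in the islets (10 of 12 called). The part of these in the factors' differences was not tested. Without cycling cells 6 factors were called, where 25.4% of genes were.

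Among the other genes, 11 of the 13 exhaustion genes were higher in islet IGRP+ and 0 lower, with a median log2 fold change of 2.93, led by the inhibitory receptors Havcr2 (TIM-3, 6.13) and Ctla4 (4.06) and the costimulatory receptor Tnfrsf9 (5.29). Over all genes of this fit without the block, 13.7% were called higher and 26.6% in either direction. The undivided list of Tbx21, Eomes and Zeb2 targets gave 2 of 17 higher and 9 lower, with a median of -1.36, which gives no direction of factor activity. Il7r was at -4.72, and S1pr5, a Tbx21- and Zeb2-dependent egress receptor, had 0 and 1 UMI in islet IGRP+ against 384 and 465 in spleen IGRP+. Zeb2 RNA itself was higher in the islets. Of the 29 partner factors 12 were higher and 5 lower, led by Fosl2 (3.71), the activation-induced receptor Nr4a3 (3.52) and Stat3 (2.86). Opposing memory factors split, 2 higher and 4 lower of 9, with Myb at 3.10, Klf2 at -3.30 and Lef1 at -2.71. Of 17 relatives, 3 were higher and 4 lower, including Batf3 at 3.97, Irf5 at 1.89 and Id3, the relative of Id2 that marks memory precursors, at -2.54.

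Clones present in both tissues gave the same comparison over a shared set of receptors. A clone is a set of cells with the same α and β chain CDR3 nucleotide sequences, counted over cells with 1 productive chain of each. In Round 1 31 clones and in Round 2 35 were found in both islet IGRP+ and spleen IGRP+. Their cells were summed per library without pairing by clone, and clone sizes differed between the tissues. In Round 1 the islet clones ranked 3 and 4 by size had 86 and 73 islet cells against 265 and 20 spleen cells. The part of this in the fit was not tested. In edgeR on these cells alone, without the block, 4 factors were higher in the islets, Tox2 (3.20), Irf8 (1.73), Batf (1.48) and Id2 (0.89), where 12.1% of genes were called higher and 23.3% in either direction. With the round as a block 7 were higher, and both T-box factors were lower, Tbx21 at -0.60 ± 0.13 (adjusted p = 0.00274) and Eomes at -0.48 ± 0.14 (adjusted p = 0.0115), where 48.9% of genes were called, 25.1% as higher and 23.8% as lower.

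In the clones with at least 10 cells in both tissues, 14 in Round 1 and 19 in Round 2, Tox2 was higher in the islets in 14 of 14 and 19 of 19. Median Tox2 levels over clones were 103 CPM in islets and 13.0 CPM in spleen in Round 1, and 112 and 0 CPM in Round 2. Spleen cells of these clones held 56 and 34 Tox2 UMIs in Rounds 1 and 2, or 17.3 and 10.0 CPM when pooled. Tox was higher in the islets in 14 of 14 and 17 of 19 clones, with medians of 323 against 200.5 CPM and 282 against 165 CPM. Batf was higher in 12 and 19 clones, Id2 in 13 and 16, Irf8 in 11 and 18, Zeb2 in 9 and 14, and Prdm1 in 9 and 16. Eomes was higher in the islets in only 2 and 3 of these clones, with medians of 121 against 228 CPM and 217 against 290.4 CPM, and Tbx21 in 2 and 5, with medians of 41.6 against 82.1 CPM and 96.4 against 146 CPM. Irf4 was the factor on which the rounds disagreed, with 3 of 14 clones higher in the islets in Round 1 and 17 of 19 in Round 2. Its clone counts rest on few UMIs, 39 in islets and 47 in spleen in Round 1, and 88 and 15 in Round 2. Clones of a round share their 2 libraries and mice, so these counts describe 2 pools and carry no test.

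**Figure D3:**
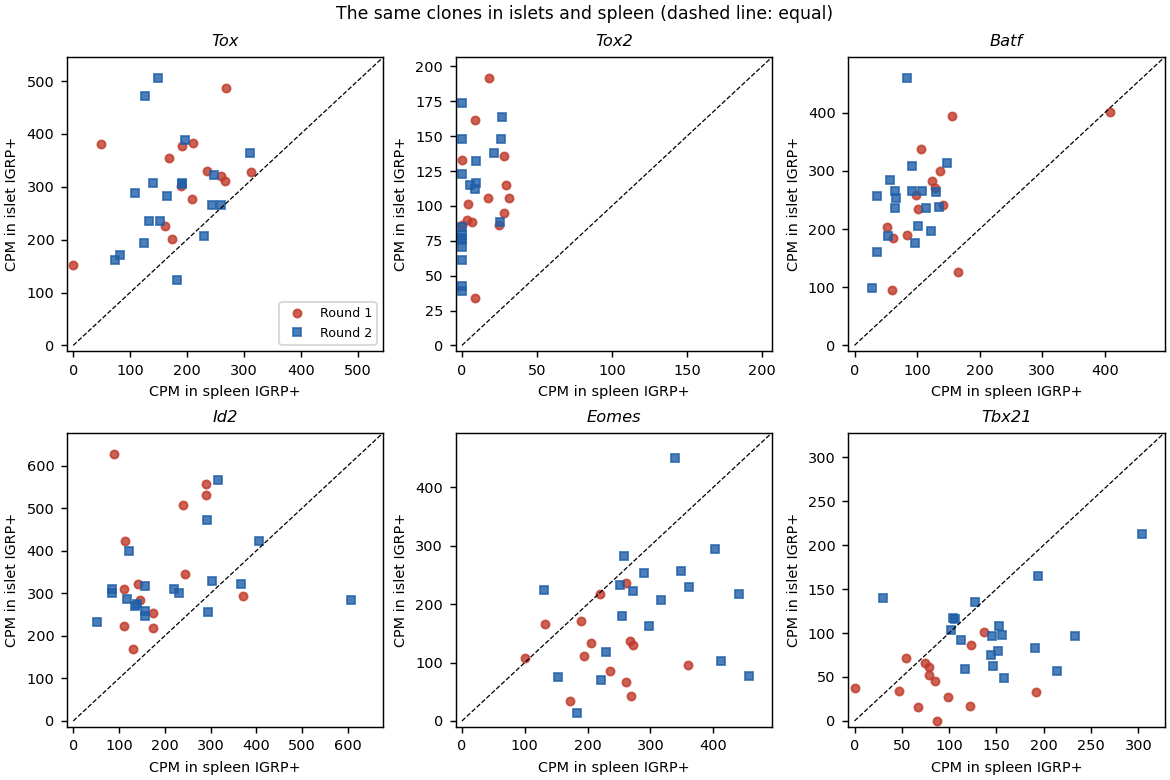
Level of Tox, Tox2, Batf, Id2, Eomes and Tbx21 in CPM in spleen IGRP+ (horizontal axes) and islet IGRP+ (vertical axes). Points are clones with at least 10 cells in both, 14 of Round 1 and 19 of Round 2, with a dashed line at equal levels. Points of Tox2 lie above the line in every clone, and most points of Eomes and Tbx21 lie below it.

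The third comparison asked how the factors relate to clonal expansion. Cells were summed by library and by the size of their clone in that library, singlets, 2 to 9 cells, and 10 or more. Only cells with 1 productive α and 1 productive β chain entered. These were 2992 of 6429 and 5483 of 8932 cells in islet IGRP-, and 673 of 1204 and 1191 of 1598 in islet IGRP+. In spleen IGRP+ they were 1660 of 3524 and 1668 of 2430. A singlet can therefore belong to a clone whose other cells were not counted. In islet IGRP- 8 of the 10 factors were higher in clones of 10 or more cells than in singlets, and the steepest were Prdm1 and Tox2. Prdm1 was at 2.79, 17.2 and 26.7 CPM in singlets, clones of 2 to 9 and clones of 10 or more in Round 1, and at 5.32, 25.7 and 60.2 CPM in Round 2, which makes the largest class 9.56 times (95% interval 5.75 to 16.9, counting error only) and 11.3 times (8.71 to 14.9) the singlets. Tox2 was at 17.4, 104 and 144 CPM, and at 13.9, 87.5 and 142 CPM. For Tox the values were 56.8, 187 and 314 CPM, and 49.7, 144 and 221 CPM. In all of these, every step up in clone size was a step up in level in both rounds. Tbx21 differed in shape, at 27.1, 72.0 and 68.8 CPM and at 46.8, 125 and 124 CPM, with the rise complete in clones of 2 to 9. Irf8, at 17.7, 18.5 and 21.2 CPM and at 27.7, 21.2 and 19.9 CPM, went in opposite directions in the 2 rounds.

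In an edgeR fit over the size classes with the library as a term, 21.1% of 10940 genes were called higher in large islet IGRP- clones and 40.1% in either direction. The 8 factors were Prdm1 (3.25 ± 0.18, adjusted p = 8.15e-15), Tox2 (3.05 ± 0.12, adjusted p = 2.85e-18), Tox (2.13 ± 0.12), Zeb2 (2.09 ± 0.13), Eomes (1.77 ± 0.10), Id2 (1.45 ± 0.10), Tbx21 (1.21 ± 0.11, adjusted p = 2.36e-10) and Batf (1.14 ± 0.09). Irf4 was at 0.27 ± 0.16 (adjusted p = 0.20) and Irf8 at -0.35 ± 0.15 (adjusted p = 0.066). The median was 1.61 over the 10 factors and -0.02 over all genes. Without the library term, where classes of a library count as independent, 7 were called, with Tbx21 at an adjusted p of 0.101. In that fit 10.0% of genes were called, 5.45% as higher. Restricting both classes to cells with a Pdcd1 UMI also left 7, with Tbx21 at 0.33 (adjusted p = 0.0825) and the median at 0.77, where 14.1% of genes were called, 7.11% as higher.

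In spleen IGRP+ the same 8 factors were called higher in clones of 10 or more cells than in singlets, where 8.34% of genes were called higher and 15.5% in either direction. Zeb2 rose from 6.02 to 71.4 CPM in Round 1 and from 19.7 to 94.7 CPM in Round 2 (2.60 ± 0.29 in the fit), Tox from 34.1 to 237 CPM and from 51.6 to 169 CPM (2.08 ± 0.20), and Eomes from 54.2 to 230.0 CPM and from 83.4 to 324 CPM (1.80 ± 0.15). Tbx21 was at 1.58 ± 0.19. Id2 (0.79 ± 0.16, adjusted p = 0.000347) and Batf (0.82 ± 0.17, adjusted p = 0.000854) rose less. Prdm1 was called at 2.52 ± 0.47 (adjusted p = 0.000211) from 4 and 2 UMIs in the singlets, giving ratios of 5.54 (2.08 to 20.8) and 9.15 (2.47 to 76.5). Tox2 had 0 UMIs in the singlets of both rounds against 60 and 40 UMIs in large clones, so it was at least 5.47-fold higher in Round 1 and at least 2.20-fold higher in Round 2, taking 3 UMIs per library as the floor. The median log2 fold change of the 10 factors was 1.69 as fitted and 1.36 with Tox2 at this bound. Zeb2 and Id2 were not highest in the largest class in Round 1, where clones of 2 to 9 cells had 135 CPM of Zeb2 and 252 CPM of Id2 against 71.4 and 186 CPM.

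Spleen classes also differed in receptor and depth. A TRAV16N α chain, the receptor gene that dominated the tetramer-positive cells, was used by 19.4% and 22.8% of spleen singlets, 83.1% and 72.7% of cells in clones of 2 to 9, and 100% of cells in larger clones, and singlets had more UMIs per cell (medians of 3856.5 and 4138 against 2613 and 2837). Among TRAV16N cells alone, with 49 and 37 singlets, 6 factors were called, where 4.73% of genes were called, 2.29% as higher, and the median over the 10 was 1.80. Tox2 (adjusted p = 0.0846) and Prdm1 (2.89 ± 1.03, adjusted p = 0.116) were not called there. Without the library term 5 were called, with classes of a library again counted as independent. There 4.98% of genes were called, 2.80% as higher, and Tbx21, Id2 and Batf were lost. Id2 was at 0.51 (adjusted p = 0.109) without the spleen library of Round 2.

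Islet IGRP+ held only 12 and 14 singlets, so its clones of 10 or more were compared with those of 2 to 9. By edgeR 0 factors were called, where 0.201% of all genes were, with 2 at an unadjusted p under 0.05, as were 7.85% of all genes, and 0 by DESeq2. Eomes came closest, at 99.9 and 143 CPM in the smaller and larger clones of Round 1 and at 153 and 219.7 CPM in Round 2 (0.57 ± 0.16, adjusted p = 0.183). The other was Batf, at 218 and 292 CPM and at 245 and 259 CPM (0.30 ± 0.13, adjusted p = 0.527). Eomes was called when either islet IGRP- library was left out (0.62, adjusted p = 0.0319, and 0.65, adjusted p = 0.0169) and Batf when the islet IGRP+ library of Round 2 was (0.68, adjusted p = 0.0426). The clones of 2 to 9 held 82 and 92 cells.

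A test of the difference between the clone size effects of islet IGRP- and spleen IGRP+ called 1 factor, Id2, where 7.79% of genes were called, 3.18% as larger in islet IGRP-. Its effect was larger in islet IGRP- by 0.65 ± 0.19 on the log2 scale (adjusted p = 0.0319). The call was not made by DESeq2 (0.69, adjusted p = 0.0703), and it was lost when either the islet IGRP- library of Round 2 (0.51, adjusted p = 0.26) or the spleen library of Round 1 (0.25, adjusted p = 0.72) was left out.

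The other genes gave wider contrasts with clone size. Over all genes, 40.1% were called in islet IGRP- and 15.5% in spleen IGRP+, 21.1% and 8.34% as higher, and 7.79% in the test of the difference. In large islet IGRP- clones 12 of 12 exhaustion genes tested were higher (median 2.14), led by Entpd1 (3.45), Havcr2 (3.24) and the signaling regulator Rgs16 (2.67), and 7 of 9 opposing memory factors were lower and 1 higher (median -1.68), led by Lef1 (-3.92), Klf2 (-2.51) and Foxp1 (-1.89). In large spleen clones 7 of 12 exhaustion genes were higher and 1 lower (median 2.25), with Entpd1 at 5.04 ± 0.90, and 12 of 17 targets of Tbx21, Eomes and Zeb2 were higher and 3 lower (median 2.20), among them the chemokine receptor Cx3cr1 (4.503) and the death ligand Fasl (4.38). The same targets gave 9 higher and 5 lower in islet IGRP- (median 0.36), and the test of the difference called 12 of 17 as smaller in islet IGRP- than in spleen, 0 as larger. As this target list is undivided, its counts and medians give no direction of factor activity. Of the partner factors 11 of 28 were higher and 10 lower in large islet IGRP- clones, among them Ikzf3 (1.40), Bhlhe40 (1.28) and Nr4a2 (1.22), and 9 higher and 2 lower in large spleen clones, led by Bhlhe40 (3.59), Ikzf2 (2.67) and Nr4a2 (2.23). Relatives gave 2 higher and 7 lower of 16 in islet IGRP-, with Batf3 at 3.72, Irf1 at -1.69 and Id3 at -1.14, and 2 higher and 0 lower in the spleen, Irf7 at 0.92 and Irf2 at 0.58. Opposing memory factors in spleen clones gave 7 of 9 lower, led by Myb (-3.60). Within islet IGRP+ clones 3 genes of these lists were called, Gzmk (granzyme K) at 0.78 (adjusted p = 0.0172), Ccr7, a lymph node homing receptor, at -1.07 (adjusted p = 0.00118) and Hif1a at -0.67 (adjusted p = 0.0147). Cycling markers were higher in large clones, 10 of 10 in islet IGRP- and 4 of 10 in the spleen. Exocrine markers were lower in large islet IGRP- clones in 10 of 12 (median -1.20) and called in 1 of 12, as higher, in the spleen. Cd68 was at 1.82 and 2.46 and Cd79b at -1.64 and -2.04 in islet IGRP- and spleen, and the part of these markers in the factors' levels was not tested. When cycling cells were left out, 9 factors were called in islet IGRP-, Irf4 joining at 0.45 (adjusted p = 0.0226), where 35.4% of genes were called, 18.6% as higher.

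**Figure D4:**
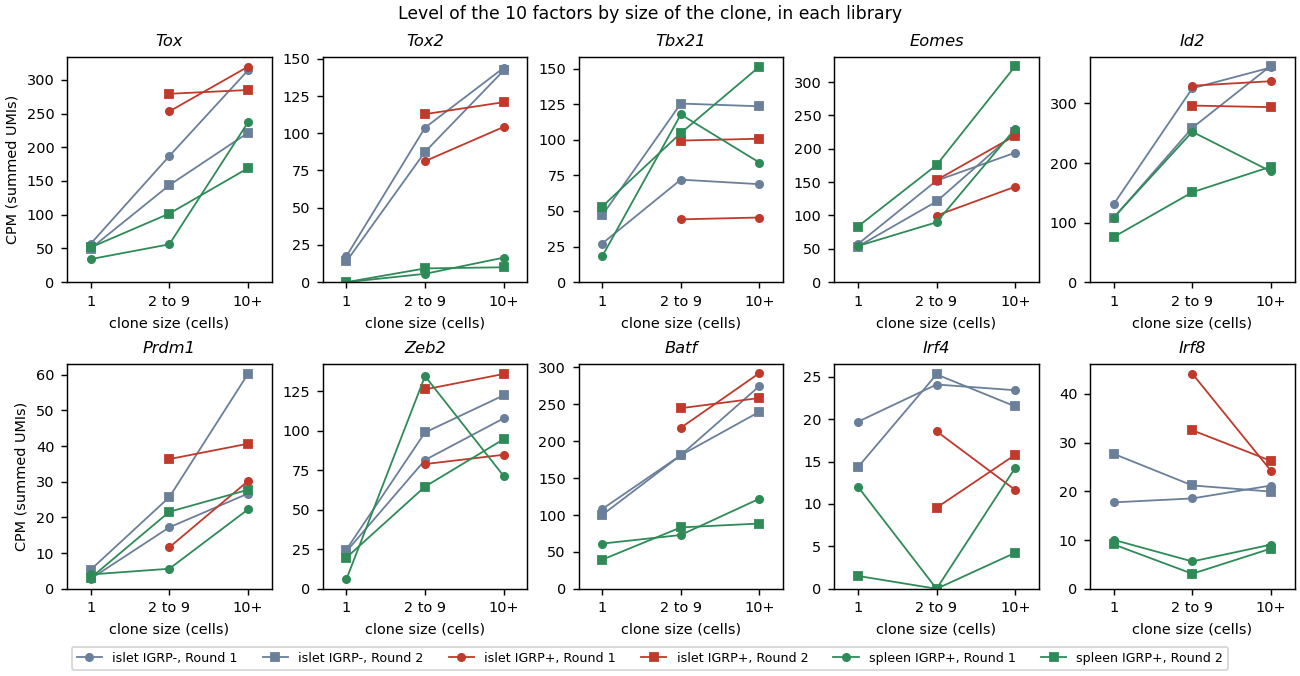
Level of each factor in CPM by clone size class, singlets, 2 to 9 cells and 10 or more cells, with a line per library and classes of fewer than 20 cells left out. Prdm1, Tox2 and Tox climb across all classes of islet IGRP-, Tbx21 levels off after the first step there, and islet IGRP+ starts at clones of 2 to 9 cells.

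Coexpression was described in each library as the level of a factor in cells with a UMI of another factor, divided by its level in cells without. Over the 90 ordered pairs of factors, 17 ratios were above 1 in all 6 libraries and 1 was below 1 in all 6, Tox2 in cells with Irf8 (0.782 to 0.984). After matching cells by depth, 26 were above 1 in all, and Tox2 with Irf8 was no longer below 1 in all (0.786 to 1.03), a ratio that rested on as few as 1 UMI. Cells with a UMI of a gene tend to be deeper, as in islet IGRP- of Round 1, where the median was 4669 UMIs with Tox and 3572 without. The 17 ratios were also above 1 without cells that held markers of other cell types.

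Tox and Tox2 went together outside islet IGRP+. Tox2 was at 120.2 CPM in islet IGRP- cells with a Tox UMI and 35.8 CPM in those without in Round 1, and at 111.7 and 36.7 CPM in Round 2, ratios of 3.36 and 3.04. Spleen ratios were 3.76 and 3.54, from 67 and 35 UMIs of Tox2 in the Tox-positive cells. In islet IGRP+ the ratios were 0.983 and 1.17, with 102 CPM of Tox2 in cells with and 104 CPM in cells without Tox in Round 1. Cells with an Eomes UMI had more Tox2 in all 6 libraries (1.11 to 2.16, median 1.82) and more Tox (1.11 to 2.09) and Batf (1.09 to 1.49).

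Some pairs among the factors of terminal effector differentiation went together in all 6 libraries, and others did not. Prdm1 was higher in cells with Id2 in all 6 libraries (1.16 to 4.04, median 1.55), with 22.6 against 5.59 CPM and 39.4 against 11.2 CPM in islet IGRP-. Id2 was higher in cells with Zeb2 (1.13 to 2.02, median 1.93), and Eomes too (1.28 to 2.36). Zeb2 in cells with Id2 was above 1 in 4 of 6 libraries (0.798 to 2.31), and in 6 after matching by depth. Prdm1 in cells with Zeb2 (0.740 to 2.47) and Zeb2 in cells with Prdm1 (0.633 to 2.07) were above 1 in 4 of 6, also after matching. Prdm1 and Tbx21 were each higher in cells with the other (medians of 1.34 and 1.21). The T-box pair itself was close to even, with Eomes in Tbx21-positive cells at 0.82 to 1.42 times its level in other cells, below 1 in both islet IGRP+ libraries and above 1 in the other 4.

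Single genes of other programs divided the cells further. In cells with a UMI of Tcf7, which encodes the memory factor TCF-1, Prdm1 was lower in all 6 libraries, with a median ratio of 0.211 and values of 0.054 and 0.155 in islet IGRP+. After matching by depth the ratios reached up to 0.997, and they rest on as few as 3 Prdm1 UMIs in the Tcf7-positive cells. Id2 (0.586 to 0.766) and Tbx21 (0.648 to 0.874) were lower there too. With Cxcr6, a chemokine receptor of tissue-resident T cells, Prdm1 was 1.24 to 7.38 times higher (median 5.10) and Id2 1.46 to 2.502 times. Tbx21 was higher with Cx3cr1 (1.39 to 2.20), and Prdm1 with the granzyme gene Gzmb (1.91 to 3.13). In cells scored as cycling Zeb2 was lower in all 6 libraries (0.385 to 0.965) and so was Tbx21 (0.554 to 0.992), each in 5 of the 6 after matching by depth. The spleen had 18 and 16 cycling cells, with 4 and 2 UMIs of Zeb2, so these ratios rest on the islets, where Zeb2 was at 50.7 against 132 CPM and 73.7 against 179 CPM in islet IGRP+.

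**Figure D5:**
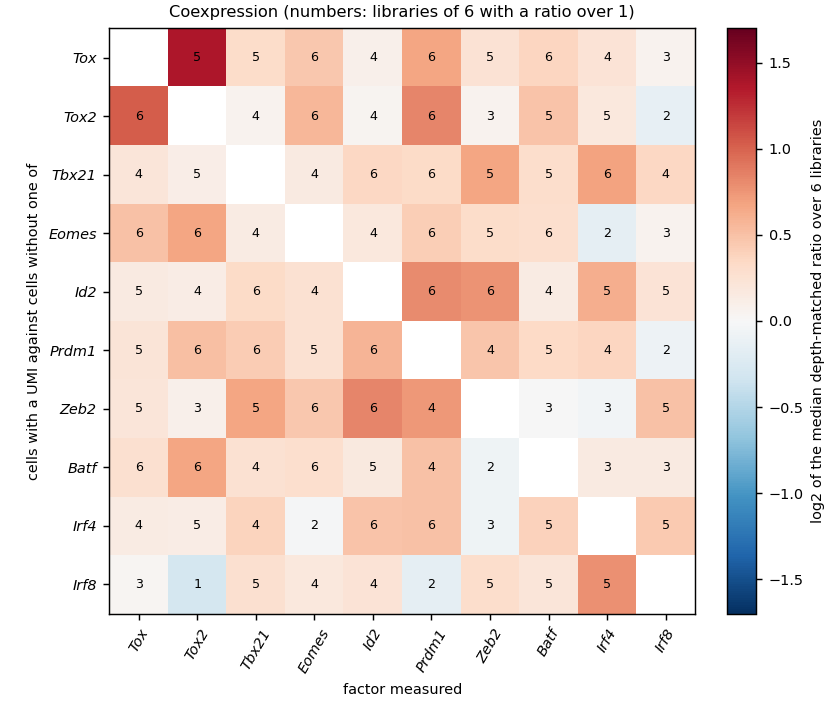
Heat map of the median depth-matched ratio over 6 libraries (log2 color scale) of the factor on the horizontal axis in cells with against cells without a UMI of the factor on the vertical axis, with the number of libraries in which the ratio is over 1. Prdm1 is above 1 in all 6 libraries in cells with Id2, and Tox2 in 5 of 6 in cells with Tox.

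Levels of the factors were also described in single clones of islet IGRP+. Among clones of at least 20 cells, 6 in Round 1 and 16 in Round 2, Eomes ranged from 85.7 to 236 CPM and from 14.0 to 450.3 CPM. Tox ranged from 277 to 377 CPM in Round 1 and from 123 to 505 CPM in Round 2, and Id2 from 224 to 532 CPM and from 200.4 to 424 CPM. Zeb2 ranged from 40.7 to 169.95 CPM and from 57.7 to 274 CPM. In islet IGRP- of Round 2, Prdm1 ranged from 15.5 to 412 CPM over 25 clones. Clones of as few as 20 cells also vary through the cells sampled, so these ranges carry no test.

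The receptors of the clones with the lowest and highest Eomes in islet IGRP+ are printed to show how little their α chains differed. All 8 used TRAV16N, TRAJ42 and TRBV13-3. The α chain CDR3s, of 45 bases, took 3 forms, in which capitals mark the 2 positions that varied, and the β chain CDR3s, of 36 bases, are in lower case throughout. Clones are numbered by size within a round.
α of Round 1 clones 4 and 5 and Round 2 clone 5: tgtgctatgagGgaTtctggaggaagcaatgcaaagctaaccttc
α of Round 1 clone 1 and Round 2 clones 11, 12 and 16: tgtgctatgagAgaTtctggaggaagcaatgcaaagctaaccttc
α of Round 1 clone 6: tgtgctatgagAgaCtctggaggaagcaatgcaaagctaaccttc
β of Round 1 clone 5 (low Eomes): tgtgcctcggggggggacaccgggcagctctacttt
β of Round 1 clone 1 (low) and Round 2 clone 12 (high): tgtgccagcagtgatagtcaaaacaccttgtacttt
β of Round 1 clone 4 (high): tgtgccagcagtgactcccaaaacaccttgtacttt
β of Round 1 clone 6 (high): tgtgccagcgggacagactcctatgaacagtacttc
β of Round 2 clones 5 and 16 (low): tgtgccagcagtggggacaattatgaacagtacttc
β of Round 2 clone 11 (high): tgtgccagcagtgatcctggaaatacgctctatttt
In Round 1 Eomes was at 85.7 CPM (exact 95% interval 57.9 to 122, counting error only) in clone 5 and 130.5 CPM (106 to 159) in clone 1, against 218 CPM (177 to 265) in clone 4 and 236 CPM (179 to 306) in clone 6. In Round 2 it was at 14.0 CPM (1.697 to 50.6, from 2 UMIs) in clone 16 and 77.8 CPM (52.8 to 110.4) in clone 5, against 380.5 CPM (288 to 493) in clone 12 and 450.3 CPM (348 to 573) in clone 11. These clones were chosen for these values, so the differences carry no test. In the spleen the Round 1 clones that were low in the islets had Eomes at 236 CPM (clone 5) and 272 CPM (clone 1), beside 220.1 and 261 CPM in clones 4 and 6. In Round 2 clone 16 was the lowest of the 4 in the spleen too, at 183 CPM from 6 UMIs in 11 cells, and clone 5 was the highest, at 457 CPM from 45 UMIs in 30 cells, beside 327 CPM in clone 12 (6 cells) and 339 CPM in clone 11 (17 cells). A single receptor, that of Round 1 clone 1 and Round 2 clone 12, reached 20 islet IGRP+ cells in both rounds. Its Eomes level was 130.5 CPM in Round 1 and 380.5 CPM in Round 2, and Zeb2 (58.7 and 274 CPM) and Tbx21 (27.4 and 147 CPM) differed the same way, whereas Tox (319.7 and 354 CPM), Id2 (345 and 387 CPM) and Batf (300.1 and 274 CPM) were closer.

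Genes whose levels ran most like each factor were sought over 91 sums of clones with at least 20 cells, centered within their library, among 5734 genes. These are correlations across clones that share libraries and mice and differ in depth, so they are given as a description. Tox was most like Nr4a2 (r = 0.62), Tox2 (0.58) and Ikzf2 (0.56), and Tox2 like Tox, Tgfbr3 (0.53) and Nr4a2 (0.48). Eomes was most like Bend4 (0.60), Sh2d2a (0.58) and the chemokine gene Ccl5 (0.56), and Tbx21 like Ramp1, Tagap and Junb (0.48 each). Id2 was most like Cxcr6 (0.56), Ptpn7 and Cyth4 (0.49 each), Prdm1 like Pcsk7 (0.49), Ccdc12 and Havcr2 (0.48 each), Zeb2 like Vgll4 (0.53), Ankrd12 and Gtdc1 (0.49 each), and Batf like Htatsf1 (0.50), Psmb6 and Hnrnpl (0.46 each). Irf4 and Irf8 were below the 20 CPM that this required. Between the factors, Tox and Eomes had r = 0.55, Id2 and Prdm1 0.46, Eomes and Zeb2 0.43, and Eomes and Tbx21 -0.11.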

How the data were processed

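CD8 T cells of 3 sorted groups were profiled by 10x 5′ single-cell RNA and receptor sequencing in 2 rounds, giving 6 RNA libraries. The deposited files hold UMI counts per gene and cell and annotated receptor contigs, which the authors made with Cell Ranger on mm10, and each contig's read and UMI counts, per the file headers. Cells with under 5% mitochondrial UMIs and 200 to 3500 genes (islet) or 200 to 2000 genes (spleen) were kept, as the study filtered them. No doublet caller was run. Cells with more than 1 productive β chain, or with at least 3 UMIs of another cell type's markers (5% exocrine UMIs), were left out as alternatives. Cycling cells had at least 3 UMIs of cycling markers. CPM are UMIs per 1000000 of a library's kept cells.

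Groups followed the labels. UMIs were summed per library, or per library and clone size class (at least 20 cells), and tested with edgeR 4.0.16 (TMM, filterByExpr, quasi-likelihood F-test) in R 4.3.3, with Benjamini-Hochberg adjustment over all genes tested and calls at 0.05. Fits of groups had no round term, and clone size fits had a library term. Rounds pair libraries because each was 1 pool of mice, and deviations of same-round libraries from their group means correlated at 0.830, 0.850 and 0.811 over 4270 genes. DESeq2 1.42.0, other scaling, filters, cells and left-out libraries were the alternatives. No source says that the mice of a library were processed apart, so no p-value measures the spread between single mice. In group fits without a round term, p-values measure the spread between libraries of a group, and libraries of 1 pool count as independent. Clone size fits without a library term also count classes of 1 library as independent, with 8 residual degrees of freedom. Neither measures a spread over more than the 2 pools. A round or library term takes out differences between rounds or libraries, and p-values then measure the spread left within them. The fits were tested on simulated data, with a dispersion of 0.01 and the same round difference in all groups. A round term can take out such a difference fully, which the correlations above show is not so in the data. Genes to raise were drawn above a mean level that Irf4 and Irf8 did not reach. Of 100 genes raised by 1 on the log2 scale in islet IGRP+, the fit without a round term recovered 21 against islet IGRP- and 17 against spleen. With the round as a block, 100 of 100 were recovered in both. False calls among 11166 unchanged genes were 0 without the block, and 10 and 11 with it. Intervals are exact (95%) and cover counting error only. Named genes were all 10 members, the 3 called genes of largest change per list and comparison, the 3 most correlated genes per member, and the 2 clones with the lowest and highest Eomes. The members and lists were chosen with earlier results of these data known. Genes of the lists under the count filter were not tested. Gene positions are from GENCODE on GRCm38. The Tox promoter and all protein sequences were not used here. Python 3.11.15 with numpy 2.4.6, pandas 2.3.3 and scipy 1.17.1 was used. Some genes that the naming rule selects are not reported here.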

Additional observations from a re-analysis of the deposited data

Results flagged for a closer look

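The effect of clone size on Id2 differed between groups in the test of the difference, but the call was fragile. The log2 fold change of clones of 10 or more cells over singlets was larger in islet IGRP- than in spleen IGRP+ by 0.65 ± 0.19 (SE, edgeR adjusted p = 0.0319). Id2 was at 131 and 360.4 CPM in singlets and large clones of islet IGRP- in Round 1 and at 108 and 363 CPM in Round 2, against 108 and 186 CPM and 75.8 and 194 CPM in spleen IGRP+. The level in large clones was above that in singlets in 4 of 4 libraries. The call was lost by DESeq2 (0.69, adjusted p = 0.0703), with no library term (0.64, adjusted p = 0.804), without the largest clone of each library (0.54, adjusted p = 0.127), without the islet IGRP- library of Round 2 (0.51, adjusted p = 0.26) and without the spleen library of Round 1 (0.25, adjusted p = 0.72).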

How the results depend on the processing

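Both group comparisons depended on the pairing of libraries by round. Of the 10 factors, islet IGRP+ against islet IGRP- called 0 without and 7 with the replicate block, 2 by DESeq2, 2 with no filter on low counts (Zeb2 and Tox) and 1 (Zeb2) with at most 2000 genes per cell or without cycling cells. The blocked count fell to 1 among cells with a Pdcd1 UMI and among clones of 2 or more cells. Islet IGRP+ against spleen IGRP+ called 6 without and 8 with the block, 3 among Pdcd1-positive cells and 2 to 4 with each library left out. Calls over all genes in the first comparison were 17 higher and 117 lower of 11277, 1624 and 1818 with the block, and 209 and 365 by DESeq2. With no filter they were 171 and 540 of 18694, and the median of all genes moved to -0.15. They were 58 and 143 of 11145 with at most 2000 genes per cell, and 43 and 142 of 11111 without cycling cells. In the second comparison they were 1549 and 1455 of 11277, and 3162 and 3053 with the block. Among Pdcd1-positive cells they were 812 and 648 of 10652 there, without the block.

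Clone size calls in spleen IGRP+ fell from 8 to 5 with no replicate block (no library term), and in islet IGRP- from 8 to 7. In islet IGRP+ they were 1 with no filter on low counts (Eomes) and 0 to 1 with libraries left out, and over all genes 48 higher and 40 lower with no filter against 7 and 15. The difference in clone size effect called 1 factor, and 0 with no replicate block, by DESeq2 and without the largest clone of each library, and 0 to 1 with libraries left out. DESeq2 size factors turned the balance of all genes in the spleen clone comparison from 912 higher and 789 lower to 718 and 941, and in the difference of clone size effects from 348 and 504 to 491 and 409.

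Directions turned for few factors, and the cause was not tested. In islet IGRP+ against islet IGRP-, Tbx21 was at -0.34 among Pdcd1-positive cells and among clones of 2 or more cells, and from -0.52 to 0.50 with libraries left out. With the replicate block it was at -0.37 and -0.36, at -0.025 with no upper limit on genes, and at -0.038 and -0.14 without islet IGRP- replicate 2 or islet IGRP+ replicate 2. Tox2 was at -0.075, or -0.062 with the block, among clones of 2 or more cells, and Irf8 at -0.021 with the block without islet IGRP- replicate 1. Against spleen, Tbx21 ranged from -0.98 to 0.013 and Irf4 from -0.098 to 2.16 with libraries left out, and Irf4 was at -0.035 with the block without spleen IGRP+ replicate 2. With libraries left out, Irf8 ranged from -0.63 to 0.085 in islet IGRP- clones and Irf4 from -0.027 to 1.31 in spleen clones, where Irf4 was at -0.59 with clones by the β chain alone and -0.26 with the top chain kept. Clone size fits without a whole round were not run, as no residual degrees of freedom remained.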
